A study of Mus musculus with 14 samples.

Results

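The genes described here are the integrin subunits and laminin chains of the mouse gene table. They are the protein-coding rows whose symbols name an integrin alpha subunit, an integrin beta subunit (Itgb1 to Itgb8) or a laminin alpha, beta or gamma chain. The rule took 38 of 49671 gene rows: 19 of integrin alpha subunits, 8 of integrin beta subunits and 11 of laminin chains. These hold 37 symbols, because Itgam is listed under 2 identifiers. RNA was sequenced from C2C12 cells, an immortalized mouse myoblast line, in 7 groups of 2 libraries. Day 0 cells were in growth medium with 20% fetal calf serum (FCS). From day 0, cells were moved into 1 of 3 differentiation media and taken at day 2 and day 7. DM1 held 2% horse serum (HS) and no added agent. DM2 held 10% FCS with a cocktail of insulin (1 µg/ml), IBMX (0.5 mM), dexamethasone (0.5 µM) and rosiglitazone (2 µM). DM3 held 2% HS with the same cocktail. DM3 against DM1 therefore compares the cocktail at 1 serum, and DM3 against DM2 compares the kind and amount of serum with 1 cocktail. All groups are cultures of 1 line, and the labels do not say whether the 2 libraries of a group came from separate cultures, so a p-value here rests on the scatter of library pairs that could be technical repeats.

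Integrins are membrane receptors made of 1 alpha and 1 beta subunit, and the pair sets which matrix protein or cell surface ligand is bound. Laminins are cross-shaped proteins of 1 alpha, 1 beta and 1 gamma chain that build the basement membrane around muscle fibres, fat cells and epithelia. In skeletal muscle, the pair of Itga7 and Itgb1 binds laminin-211, whose alpha chain is Lama2, and loss of either Itga7 or Lama2 causes muscular dystrophy.

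Library totals ran from 21907617 to 29784885 estimated counts, and the members took 0.394% to 0.643% of them. Levels are CPM, counts at a common library total after TMM scaling. Levels of different genes are compared only as RPKM, CPM per kilobase of merged exons. Means are given with the SD over the 2 libraries of a group. Of the 38 rows, 31 passed the filter on low counts and were tested. Itgae, Itga2, Itgam under both identifiers, Itgax, Itga9 and Itgad did not pass. Among these the highest count in a library was 13, for Itgae, and Itgad was at 0 in every library. Processed pseudogenes took a low share of counts in 3 libraries (day 0 replicate 1, DM1 day 2 replicate 1 and DM3 day 2 replicate 2) compared with their group partners, and fits that leave these 3 out are given where they change a count. Markers of myoblasts and muscle (Myod1, Myf5, Myog, Des, Cdh15, Ckm, Acta1 and Myh3) summed to 1543 and 1336 CPM at day 0, and to 20623 and 19730 CPM in DM3 at day 7, the group with the highest sum. Fibroblast markers (Pdgfra, Col1a1, Dcn, Thy1 and Pdgfrb, with Thy1 at 0 in all libraries) summed to 184 and 169 CPM at day 0 and were highest in DM1 at day 7, at 1559 and 1314 CPM. Leukocyte markers summed to between 1.39 and 7.12 CPM in a library, with Adgre1 and Tyrobp at 0 throughout. Adipocyte markers summed to at most 9.22 CPM, in DM2 at day 7, with Lep at 0 in every library. Sums of endothelial, epithelial and Schwann cell markers did not exceed 4.16, 5.79 and 1.01 CPM.

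A few subunits made up most of the integrin message. Summed per length, the integrin alpha rows came to 195 ± 6.88 RPKM at day 0, 324 ± 2.24 RPKM in DM1 at day 7, 126 ± 6.58 RPKM in DM2 at day 7 and 359 ± 18.9 RPKM in DM3 at day 7. Itga7 held 35.7 ± 0.355% of that sum at day 0, 49.5 ± 1.91% in DM1, 47.2 ± 2.26% in DM2 and 72.2 ± 0.291% in DM3 at day 7. Itga5, the alpha subunit of the main fibronectin receptor, held 33.3 ± 1.12% at day 0 and 18.8 ± 0.0563% in DM3 at day 7. Itga3 and Itga6, alpha subunits of laminin receptors found in epithelia and other tissues, held 13.6 ± 0.569% and 8.46 ± 0.679% at day 0, against 2.89 ± 0.187% and 2.64 ± 0.157% in DM3 at day 7. Among the beta subunits, Itgb1 held between 75.6 ± 2.68% (DM3 at day 2) and 90.9 ± 0.851% (DM3 at day 7) of the summed RPKM. Of the laminin alpha chains, Lama5 held the most in every group, falling from 82.3 ± 1.06% of the summed RPKM at day 0 to 60.2 ± 0.850% in DM3 at day 7, where Lama2 held 37.7 ± 0.622%. These shares are a description and were not tested.

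**Figure D1:**
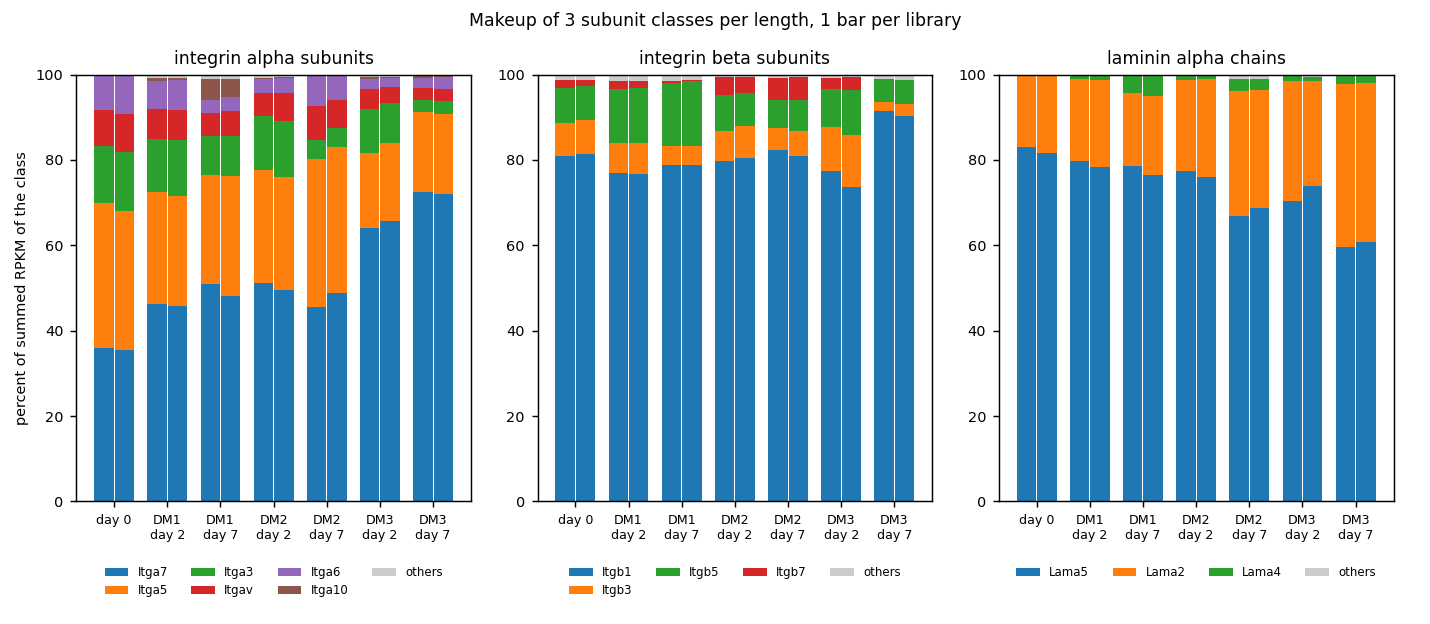
Share of the summed RPKM of integrin alpha subunits, integrin beta subunits and laminin alpha chains held by each named gene (percent, y axis), with 1 bar for each of the 14 libraries, grouped by medium and day (x axis). Itga7 takes 35.7% of the alpha subunits at day 0 and 72.2% in DM3 at day 7, and Itgb1 is the largest part of the beta subunits in every bar.

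Itga7 rose in both horse serum media and more so with the cocktail, while in DM2 it rose at day 2 and was back near its starting level at day 7. The gene lies on the plus strand at chr10:128933818-128958282 (GRCm38, as are all positions here). Itga7 stood at 583 and 547 CPM in the day 0 libraries, at 1128 and 1034 (day 2) and 1329 and 1271 (day 7) in DM1, at 948 and 965 and 449 and 517 in DM2, and at 1811 and 2109 and 2026 and 2170.3 in DM3. Both libraries of DM3 were above all others at both days, and the 2 of DM2 at day 7 were the lowest of all. Against day 0 the log2 fold change was 1.20 ± 0.0991 (SE) in DM1 and 1.89 ± 0.101 in DM3 at day 7 (edgeR quasi-likelihood test, Benjamini-Hochberg adjusted p = 8.15e-07 and 9.96e-09). In DM2 at day 7 it was -0.22 ± 0.0978 (edgeR adjusted p = 0.0703), after 0.76 ± 0.0983 at day 2 (edgeR adjusted p = 4.89e-05). At day 7 DM3 exceeded DM1 by 0.69 ± 0.0981 on the log2 scale and DM2 by 2.12 ± 0.102 (edgeR adjusted p = 0.000105 and 7.53e-09). The muscle markers in DM3 summed to 2290 and 2686 CPM at day 2 and to 20623 and 19730 CPM at day 7. Itga7 was already near its day 7 level at day 2. Of the 8 markers, 6 were higher and 1 was lower than at day 0 at each of these days. Their median log2 fold change against day 0 was 4.20 at day 2 and 5.68 at day 7. Their part in the rise of Itga7 was not tested. In these bulk samples, fewer cells of a type and less RNA per cell cannot be told apart.

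Itgb1, the beta subunit shared by the laminin, collagen and most fibronectin receptors, varied least of the members, with group means 1.57-fold apart. Itgb1 stood at 1043 and 1034 CPM in the day 0 libraries, at 1141 and 1118 (day 2) and 968 and 947 (day 7) in DM1, at 736 and 799.7 and 937 and 866 in DM2, and at 911 and 830.5 and 1238 and 1181 in DM3. Its highest libraries were those of DM3 at day 7 and its lowest those of DM2 at day 2. It was lower than day 0 in DM2 at day 2 by a log2 fold change of -0.44 ± 0.0799 (edgeR adjusted p = 0.000694), and it rose between day 2 and day 7 in DM3 by 0.47 ± 0.0799 (edgeR adjusted p = 0.000414). At day 7 it was 0.34 ± 0.0798 higher in DM3 than in DM1 and 0.42 ± 0.0799 higher than in DM2 (edgeR adjusted p = 0.00405 and 0.000713).

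Itga3 and Itga6, the other alpha subunits of laminin receptors, did not follow Itga7 at day 7. Itga3 stood at 151 and 153 CPM in the day 0 libraries, at 213 and 209.8 (day 2) and 165 and 176 (day 7) in DM1, at 166 and 179 and 31.4 and 33.9 in DM2, and at 205 and 211 and 54.4 and 64.2 in DM3. Itga3 was low in both cocktail media at day 7 only. Itga6 stood at 144 and 154 CPM in the day 0 libraries, at 181 and 173 (day 2) and 89.0 and 97.4 (day 7) in DM1, at 69.5 and 78.3 and 77.2 and 67.4 in DM2, and at 76.1 and 76.4 and 79.0 and 92.6 in DM3. Itga6 was below its day 0 level in both cocktail media at both days, and in DM1 at day 7. Against day 0, the log2 fold change of Itga3 was -2.22 ± 0.0924 in DM2 and -1.36 ± 0.0897 in DM3 at day 7 (edgeR adjusted p = 2.67e-09 and 6.7e-08), and 0.47 ± 0.0879 in DM1 and 0.45 ± 0.0879 in DM3 at day 2 (edgeR adjusted p = 0.00161 and 0.00101). The DM1 value at day 2 was 0.46 without the 3 libraries of low pseudogene share (edgeR adjusted p = 0.0602). For Itga6 the values were -0.68 ± 0.0998 in DM1, -1.04 ± 0.10 in DM2 and -0.80 ± 0.10 in DM3 at day 7 (edgeR adjusted p = 0.000109, 2.59e-06 and 2.13e-05).

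Itgb4 pairs with Itga6 in hemidesmosomes, where it binds an epithelial laminin that holds Lama3 and Lamb3. Itgb4 and Lamb3 were both low in the media with the cocktail. Itgb4 stood at 3.94 and 3.34 CPM in the day 0 libraries, at 5.58 and 5.70 (day 2) and 3.10 and 3.26 (day 7) in DM1, at 0.361 and 1.03 and 0.263 and 0.389 in DM2, and at 0.705 and 0.823 and 0.169 and 0.246 in DM3. Lamb3 stood at 19.3 and 16.6 CPM in the day 0 libraries, at 13.9 and 12.3 (day 2) and 6.09 and 8.89 (day 7) in DM1, at 5.05 and 5.27 and 4.48 and 3.97 in DM2, and at 1.76 and 1.75 and 0.845 and 0.945 in DM3. For each of these genes no library of DM2 or DM3 reached the lowest library of day 0 or of DM1, as the plot of levels shows for Lamb3. In DM3 at day 7 the log2 fold change against day 0 was -4.10 ± 0.439 for Itgb4 and -4.32 ± 0.207 for Lamb3 (edgeR adjusted p = 5.27e-06 and 3.9e-09). In DM2 at day 7 it was -3.46 ± 0.411 and -2.08 ± 0.178 (edgeR adjusted p = 1.58e-05 and 9.19e-07). In DM1 at day 7 Lamb3 fell by 1.26 ± 0.172 and Itgb4 was at -0.20 ± 0.342 on the log2 scale (edgeR adjusted p = 5.94e-05 and 0.664). Lamb3 was also lower in DM3 than in DM2, by 1.55 ± 0.188 at day 2 and 2.23 ± 0.202 at day 7 in absolute log2 fold change (edgeR adjusted p = 0.000179 and 1.67e-06). Epithelial markers summed to 5.79 and 4.37 CPM at day 0, to between 0.501 and 1.08 CPM in DM1 and to between 0.0881 and 0.676 CPM in the cocktail media, with Epcam at 0 in 6 of the groups. Most of the day 0 sum was Krt14, a basal keratin, at 5.79 and 4.27 CPM at day 0, 0.178 and 0.167 CPM in DM1 at day 7 and 0 in DM3 at day 7. Cdh1, E-cadherin, went the other way in DM1 and DM3, with 1 count over both libraries at day 0 and 0.285 and 0.250 CPM in DM1 and 0.634 and 0.452 CPM in DM3 at day 7. Their part in these differences was not tested.

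Lama3, the alpha chain of the same laminin, went another way. Lama3 stood at 0.907 and 0.681 CPM in the day 0 libraries, at 1.34 and 1.50 (day 2) and 1.64 and 2.42 (day 7) in DM1, at 1.64 and 2.25 and 10.4 and 10.3 in DM2, and at 2.11 and 3.87 and 1.06 and 1.40 in DM3. Only the libraries of DM2 at day 7 exceeded 4 CPM. Its log2 fold change against day 0 was 3.70 ± 0.338 in DM2 at day 7 (edgeR adjusted p = 1.62e-06), in the medium in which Lamb3 had fallen. It was 3.08 ± 0.328 lower in DM3 than in DM2 (edgeR adjusted p = 6.91e-06).

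The receptors for fibrillar collagen were scarce at day 0, and 2 of the 4 rose in DM1. Itga10 and Itga11 encode alpha subunits that pair with Itgb1 to bind collagens of cartilage and of connective tissue. Itga10 stood at 0.872 and 0.983 CPM in the day 0 libraries, at 11.0 and 7.87 (day 2) and 81.1 and 68.2 (day 7) in DM1, at 2.50 and 1.91 and 1.09 and 0.934 in DM2, and at 9.65 and 7.67 and 6.31 and 5.92 in DM3. The DM1 libraries of day 7 were far above the next highest, which was at 11.0 CPM in DM1 at day 2, and DM2 at day 7 overlapped day 0. The log2 fold change against day 0 was 3.33 ± 0.211 in DM1 at day 2, 6.32 ± 0.224 in DM1 at day 7 and 2.71 ± 0.212 in DM3 at day 7 (edgeR adjusted p = 6.77e-07, 8.08e-10 and 3.15e-07). In DM2 at day 7 it was 0.12 ± 0.243 (edgeR adjusted p = 0.727). Itga10 did not differ detectably between DM3 and DM1 at day 2, at -0.13 ± 0.176 (edgeR adjusted p = 0.629), and was lower in DM3 at day 7 by 3.61 ± 0.189 in absolute value (edgeR adjusted p = 3.34e-08). Of its merged exon length, 1739 bases (33.5%) are shared with Gm42957 on the same strand, which received 167 counts over all libraries, so reads there could have been split between them.

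Itga11 stood at 0.279 and 0.0681 CPM in the day 0 libraries, at 1.39 and 0.788 (day 2) and 4.03 and 4.42 (day 7) in DM1, at 0.761 and 0.878 and 0.376 and 0.156 in DM2, and at 0.308 and 0.501 and 0.380 and 0.411 in DM3. In Itga11, too, the DM1 libraries at day 7 were the highest. Its log2 fold change against day 0 was 4.57 ± 0.559 in DM1 at day 7 (edgeR adjusted p = 2.33e-05), which became 5.86 without day 0 replicate 1 and 3.90 without day 0 replicate 2 (edgeR adjusted p = 7.88e-05 and 0.000353). It was 3.40 ± 0.515 lower in DM3 than in DM1 at day 7 (edgeR adjusted p = 0.000175). Itga1, another collagen-binding alpha subunit, stayed between 0.0423 and 0.878 CPM in all libraries, and Itga2 did not pass the filter. In DM1 the fibroblast markers were also high, at a sum of 520 and 418 CPM at day 2 and 1559 and 1314 CPM at day 7. In the cocktail media, where Itga10 was above day 0 in DM3 at both days, their sum was at most 182 CPM. Col1a1, with 1361 and 1111 CPM in DM1 at day 7, made up most of the sum. Their part in the rise of the collagen receptors was not tested.

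The 250 bases before the start site are given for Itga10 and Itga4, alpha subunits that were high in DM1, and for Itgb7, which was high in DM2 at day 7, because the media set these 3 furthest apart among the members with a window and adequate counts. They are RefSeq sequences of GRCm38.p6, written from 5′ to 3′ on the strand of the gene, at chr3:96645334-96645583 (plus), chr2:79255176-79255425 (plus) and chr15:102231936-102232185 (minus). Capitals mark the E-box CAGCTG, a letter pattern bound by factors of the MyoD family.
Itga10: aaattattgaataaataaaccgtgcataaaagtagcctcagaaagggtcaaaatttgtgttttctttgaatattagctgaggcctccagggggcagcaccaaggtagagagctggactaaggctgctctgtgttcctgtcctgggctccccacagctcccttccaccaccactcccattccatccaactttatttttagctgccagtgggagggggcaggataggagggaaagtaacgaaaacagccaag
Itga4: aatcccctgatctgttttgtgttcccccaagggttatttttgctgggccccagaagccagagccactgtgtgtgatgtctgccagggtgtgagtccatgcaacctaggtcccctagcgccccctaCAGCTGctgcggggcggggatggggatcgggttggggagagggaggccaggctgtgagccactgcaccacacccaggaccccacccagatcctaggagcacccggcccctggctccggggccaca
Itgb7: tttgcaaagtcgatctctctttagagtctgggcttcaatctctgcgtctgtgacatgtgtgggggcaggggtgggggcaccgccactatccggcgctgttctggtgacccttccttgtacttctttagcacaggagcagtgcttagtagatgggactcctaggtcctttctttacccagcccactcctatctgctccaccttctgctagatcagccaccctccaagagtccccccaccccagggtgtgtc
Of 37 symbols, 23 had a window in the RefSeq table (26 windows), and Itga7 was not among them. The E-box CAGCTG stood in the window of 6 members (Itga1, Itga2b, Itga4, Itga9, Itgb5 and Lamb3) and in 13% of the 32851 promoters of the table. In Itga4 it starts 125 bases before the start site. The second E-box, CAGGTG, was found in 17.2% of all promoters and in 8 members. The cyclic AMP response element TGACGTCA was in 1.55% and in no member, and its core TGACG, which lies within it, in 17.8% and in 4 members. The GC box GGGCGG was in 32.7% of all promoters and in 9 member windows (Itga3, Itga4, Itga5, Itgam, Itgb1, Itgb5, Lama5 and Lamb1). In Itga4 the GC box, not capitalized above, starts 114 bases before the start site. The TATA box TATAAA was in 12.4% and in no member. Each motif was sought on both strands, and a match describes letters, not a site in use.

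Itga4 binds Vcam1 and fibronectin, with Itgb1 or Itgb7 as its partner. Itga4 stood at 2.79 and 2.52 CPM in the day 0 libraries, at 19.0 and 19.5 (day 2) and 20.5 and 16.0 (day 7) in DM1, at 1.08 and 1.37 and 0.226 and 0.195 in DM2, and at 6.17 and 6.59 and 1.86 and 2.18 in DM3. The DM1 libraries were highest at both days, and those of DM2 at day 7 the lowest. Against day 0, Itga4 rose by 2.78 ± 0.168 in DM1 at day 7 (edgeR adjusted p = 5.4e-08) and fell by 3.63 ± 0.224 in DM2 at day 7 (edgeR adjusted p = 6.03e-08) on the log2 scale. In DM3 it rose at day 2 by 1.26 ± 0.164 (edgeR adjusted p = 4.35e-05) and was at -0.39 ± 0.171 at day 7 (edgeR adjusted p = 0.0654). It was lower in DM3 than in DM1 and higher than in DM2 at day 7, by 3.17 ± 0.173 and 3.23 ± 0.229 in absolute value (edgeR adjusted p = 4.45e-08 and 2.05e-07). Cerkl lies antisense over 8.0% of its exon length and received 101 counts in all; the sources used here do not say whether counting used the strand.

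Itgb7, known as a beta subunit of lymphocytes that pairs with Itga4 or Itgae, was present at day 0. At day 7 against day 0 it went the other way from Itga4 in DM1 and in DM2, whereas from day 2 to day 7 in DM3 both fell. Itgb7 stood at 16.1 and 12.5 CPM in the day 0 libraries, at 18.9 and 17.2 (day 2) and 4.10 and 2.92 (day 7) in DM1, at 26.4 and 24.4 and 40.3 and 39.2 in DM2, and at 20.6 and 23.5 and 0.296 and 1.03 in DM3. DM2 at day 7 was the highest group, and DM1 and DM3 at day 7 were the lowest, with no overlap between these and the other groups. The log2 fold change against day 0 at day 7 was 1.48 ± 0.270 in DM2, -2.02 ± 0.292 in DM1 and -4.42 ± 0.359 in DM3 (edgeR adjusted p = 0.00107, 0.000239 and 2.7e-06). The DM3 value became -3.79 without DM3 day 7 replicate 1 and -5.57 without replicate 2 (edgeR adjusted p = 6.05e-07 and 1.4e-07). The rise in DM2 at day 2, 0.83 ± 0.269 (edgeR adjusted p = 0.0276), was lost without day 0 replicate 2 (0.66, adjusted p = 0.147) and without either DM2 library of that day (0.72 and 0.89, edgeR adjusted p = 0.156 and 0.0833). Its other partner Itgae was at most 0.463 CPM, and Madcam1, the ligand of the Itga4 and Itgb7 pair in gut vessels, at most 0.0375 CPM in any library. In the leukocyte marker list Ptprc was at 0 in both libraries of 4 groups, and Cd68, which is not restricted to leukocytes, was the only 1 of 12 genes to pass the filter.

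The remaining leukocyte integrins were near the floor. Itgb2 stood at 0.907 and 1.02 CPM in the day 0 libraries, at 1.85 and 1.73 (day 2) and 1.35 and 1.04 (day 7) in DM1, at 0.481 and 0.878 and 1.88 and 1.98 in DM2, and at 0.793 and 1.04 and 0.550 and 0.698 in DM3. Itgal stood at 0.349 and 0.511 CPM in the day 0 libraries, at 0.798 and 0.525 (day 2) and 0.249 and 0.125 (day 7) in DM1, at 0.922 and 0.573 and 0.0376 and 0 in DM2, and at 1.89 and 2.04 and 0.634 and 0.246 in DM3. Itgb2, the beta subunit of white blood cells, was called against day 0 in DM2 at day 7 only, at 1.00 ± 0.329 (edgeR adjusted p = 0.0213), and that call was lost whichever of the 4 libraries was left out (0.92 without day 0 replicate 1 and 1.09 without replicate 2, 1.04 without DM2 day 7 replicate 1 and 0.96 without replicate 2, edgeR adjusted p = 0.104, 0.0615, 0.0585 and 0.0798). Itgal, an alpha subunit of lymphocytes, was highest in DM3 at day 2 and nearly absent from DM2 at day 7. Itgal had 25 counts at day 0 and 1 in DM2 at day 7, a ratio of 22.5 with an exact 95% interval from 3.69 to 925, which covers counting error only. In DM3 at day 2 its log2 fold change against day 0 was 2.18 ± 0.527 (edgeR adjusted p = 0.00421).

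**Figure D2:**
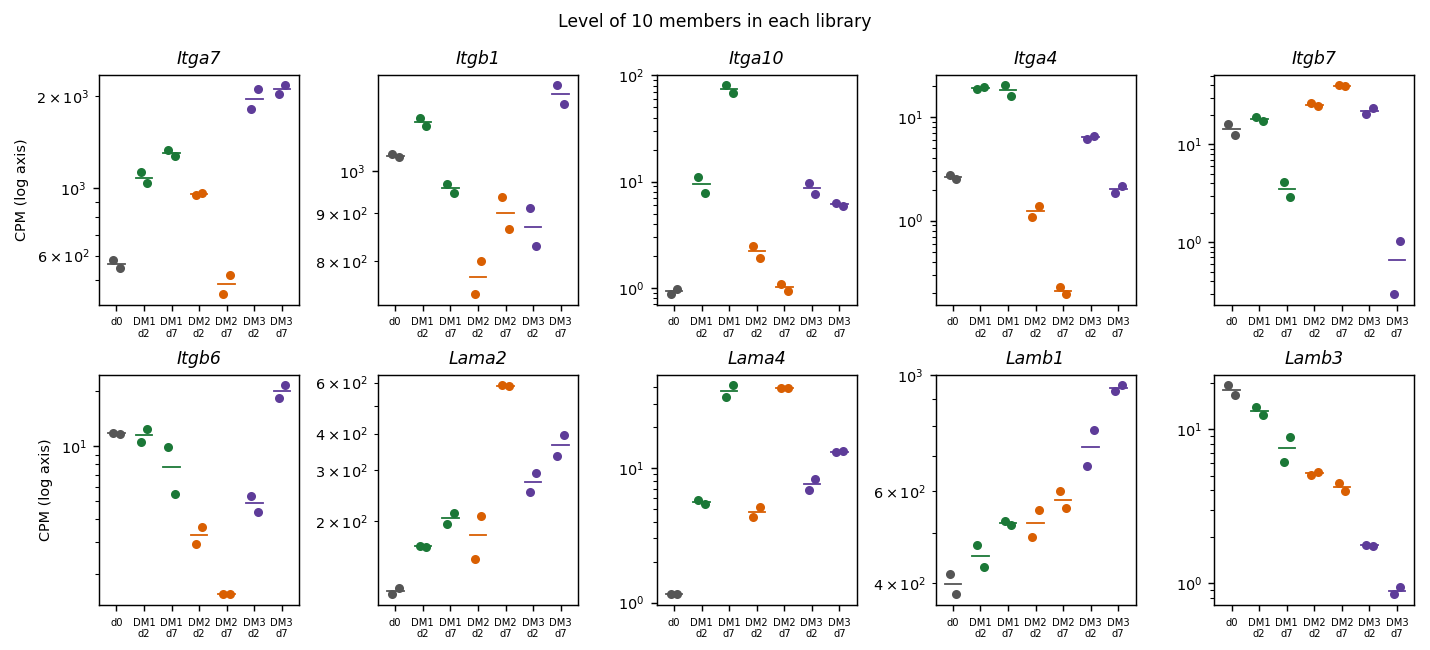
Level of 10 integrin and laminin genes in each of the 14 libraries (CPM on a log y axis that differs between panels), by medium and day (x axis), with a point for each library and a line at the mean of the 2. Itga10 reaches 81.1 and 68.2 CPM in DM1 at day 7, Itgb7 falls to 0.296 and 1.03 CPM in DM3 at day 7, and Itgb6 is highest in DM3 at day 7.

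Among the receptors that bind RGD motifs in fibronectin and vitronectin, group means of the abundant alpha subunits Itga5 and Itgav spanned 2.00-fold and 2.25-fold. Those of the beta subunits Itgb3 and Itgb5 spanned 3.96-fold and 2.59-fold. Itga5 stood at 336 and 305 CPM in the day 0 libraries, at 389.9 and 353 (day 2) and 408 and 450.4 (day 7) in DM1, at 298 and 317 and 208 and 221 in DM2, and at 306 and 361 and 320.2 and 346 in DM3. Itgav stood at 180.2 and 179 CPM in the day 0 libraries, at 226 and 212 (day 2) and 189 and 204 (day 7) in DM1, at 134 and 169 and 103 and 92.0 in DM2, and at 175 and 159.9 and 105 and 109.9 in DM3. Itga5 and Itgav were lowest in DM2 at day 7, where the log2 fold change against day 0 was -0.58 ± 0.102 and -0.88 ± 0.108 (edgeR adjusted p = 0.000397 and 2.11e-05). Itgav, which pairs with Itgb3, Itgb5, Itgb6 or Itgb8, was also lower in DM3 at day 7, by 0.74 ± 0.108 in absolute value (edgeR adjusted p = 7.4e-05). Itgb3 stood at 146 and 149 CPM in the day 0 libraries, at 146 and 152 (day 2) and 80.2 and 78.4 (day 7) in DM1, at 91.8 and 107 and 85.1 and 90.2 in DM2, and at 175 and 197 and 39.8 and 54.0 in DM3. Itgb3 was highest in DM3 at day 2 and lowest in the same medium at day 7, a log2 fold change of -1.98 ± 0.129 between the days (edgeR adjusted p = 1.97e-07). Itgb5 stood at 91.9 and 87.8 CPM in the day 0 libraries, at 166 and 163 (day 2) and 159 and 158 (day 7) in DM1, at 69.4 and 67.8 and 65.7 and 67.6 in DM2, and at 91.4 and 103 and 64.1 and 62.9 in DM3. Itgb5 was high in all 4 DM1 libraries and in no other, with a log2 fold change against day 0 of 0.87 ± 0.0726 at day 2 and 0.82 ± 0.0725 at day 7 (edgeR adjusted p = 5.45e-06 and 1.52e-06).

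Itgb6 and Itgb8 form the receptors that release active TGF-beta from its latent complex. Itgb6 stood at 11.9 and 11.7 CPM in the day 0 libraries, at 10.6 and 12.4 (day 2) and 9.87 and 5.47 (day 7) in DM1, at 2.93 and 3.63 and 1.54 and 1.56 in DM2, and at 5.37 and 4.37 and 18.5 and 21.6 in DM3. The DM3 libraries of day 7 were the highest and the DM2 libraries of day 7 the lowest. Within DM3, Itgb6 fell by 1.28 ± 0.232 at day 2 against day 0 and rose by 2.04 ± 0.235 from day 2 to day 7 (edgeR adjusted p = 0.00059 and 2.15e-05). At day 7 it was higher in DM3 than in DM1 by 1.38 ± 0.228 and than in DM2 by 3.69 ± 0.258 (edgeR adjusted p = 0.000331 and 1.88e-07). Against day 0 the DM3 value of 0.76 ± 0.223 at day 7 (edgeR adjusted p = 0.0106) was 0.76 without day 0 replicate 2 and 0.65 without DM3 day 7 replicate 2 (edgeR adjusted p = 0.0525 and 0.0747). Itgb8 stood at 15.1 and 16.3 CPM in the day 0 libraries, at 24.3 and 23.7 (day 2) and 22.4 and 22.3 (day 7) in DM1, at 5.05 and 6.64 and 13.7 and 8.02 in DM2, and at 10.2 and 7.38 and 5.92 and 6.69 in DM3. Itgb8 was higher in both DM1 days than in either day of DM3: the log2 fold change of DM3 against DM1 was -1.45 ± 0.230 at day 2 and -1.83 ± 0.235 at day 7 (edgeR adjusted p = 0.000524 and 7.06e-05).

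Itga2b, best known as a platelet subunit, and Itga8 were low throughout. Itga2b stood at 1.57 and 1.12 CPM in the day 0 libraries, at 3.40 and 3.15 (day 2) and 5.91 and 7.80 (day 7) in DM1, at 6.81 and 6.07 and 0.640 and 0.778 in DM2, and at 4.27 and 4.90 and 4.40 and 4.48 in DM3. Itga2b rose in DM1 at day 7 by 2.34 ± 0.218, and in DM2 it rose by 2.25 ± 0.218 at day 2 and fell by 3.18 ± 0.233 from day 2 to day 7 (edgeR adjusted p = 2.27e-06, 4.71e-06 and 3.58e-07). Itga8 was at 0 in all libraries of day 0 and of DM1 at day 2, between 0.0376 and 0.215 CPM in the cocktail media and at 0.641 and 0.793 CPM in DM1 at day 7. Against a floor of 3 counts per library it was at least 6.88-fold higher in DM1 at day 7 than at day 0.

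**Figure D3:**
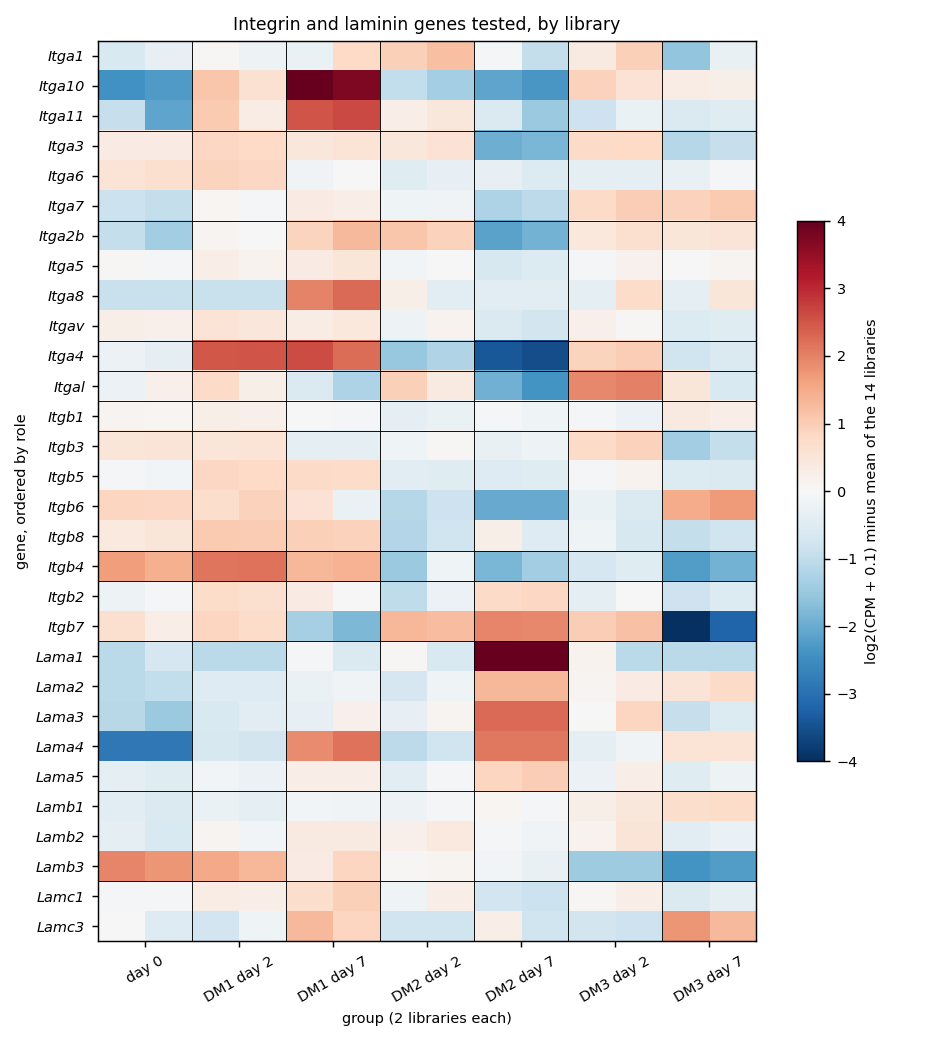
Level of 30 tested integrin and laminin genes (rows, ordered by role) in each of the 14 libraries (columns, 2 for each group), as log2(CPM + 0.1) minus the gene's mean over all libraries, with the colour scale limited to -4 and 4. Itga10 and Itga4 stand out in DM1, and Lama1, Lama3 and Itgb7 in DM2 at day 7. Lama4 is high in both DM1 and DM2 at day 7, and Itgb7 is at its lowest in DM3 at day 7.

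The laminin alpha chains as a class were highest in DM2 at day 7. Summed per length they came to 40.5 ± 1.10 RPKM at day 0, 70.4 ± 1.23 RPKM in DM1, 126 ± 5.18 RPKM in DM2 and 59.2 ± 7.97 RPKM in DM3 at day 7. Lama2 is the chain of the muscle basement membrane. Lama2 stood at 111 and 117 CPM in the day 0 libraries, at 164 and 162 (day 2) and 195 and 213 (day 7) in DM1, at 148 and 208 and 587 and 585 in DM2, and at 251 and 293 and 334 and 395 in DM3. DM2 at day 7 was above every other library, and DM3 was second. Its log2 fold change against day 0 was 2.36 ± 0.148 in DM2, 1.67 ± 0.145 in DM3 and 0.84 ± 0.142 in DM1 at day 7 (edgeR adjusted p = 6.91e-08, 7.75e-07 and 0.000325). At day 7 it was 0.83 ± 0.142 higher in DM3 than in DM1 and 0.69 ± 0.142 lower than in DM2 (edgeR adjusted p = 0.000417 and 0.00137).

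Lama4, a chain of vessels, fat and nerve, rose in every medium. Lama4 stood at 1.15 and 1.16 CPM in the day 0 libraries, at 5.79 and 5.36 (day 2) and 33.7 and 41.2 (day 7) in DM1, at 4.33 and 5.11 and 39.4 and 39.4 in DM2, and at 6.91 and 8.23 and 13.1 and 13.3 in DM3. DM1 and DM2 reached the same range at day 7, and DM3 stayed below both. The log2 fold change against day 0 at day 7 was 5.01 ± 0.153 in DM1, 5.09 ± 0.153 in DM2 and 3.51 ± 0.148 in DM3 (edgeR adjusted p = 3.5e-10, 2.87e-10 and 1.39e-09). DM3 was 1.50 ± 0.125 below DM1 and 1.58 ± 0.125 below DM2 (edgeR adjusted p = 1.27e-06 and 5.13e-07). In DM1 at day 7 the fibroblast markers were also at their highest, as given above. In DM2 at day 7, with Lama4 in the same range, these markers summed to 76.1 and 68.7 CPM. Their part in the rise of Lama4 was not tested.

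Lama5 stood at 391 and 369 CPM in the day 0 libraries, at 477 and 431 (day 2) and 622 and 621 (day 7) in DM1, at 373 and 481 and 931 and 1015 in DM2, and at 438 and 609 and 364 and 449 in DM3. Lama5, the most abundant alpha chain per length, was highest in DM2 at day 7, with a log2 fold change against day 0 of 1.36 ± 0.164 (edgeR adjusted p = 2.35e-05). In DM3 at day 7 it was at 0.10 ± 0.161 (edgeR adjusted p = 0.634). Lama1, the alpha chain of the laminin of early embryos, was seen above a few counts in DM2 at day 7 only. It was at 3.35 and 3.74 CPM there, with 185 counts, at most 0.132 CPM in any other library and at 0 in DM3 at day 7. The ratio to day 0, with its single count, was 205 (exact 95% interval from 36.4 to 8153, counting error only), and against the floor of 3 counts per library Lama1 was at least 28.3-fold higher in DM2 than in DM3 at day 7.

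Summed per length, alpha and gamma chains were both above day 0 in DM1 at day 7, whereas in the cocktail media at day 7 the alpha sum was above and the gamma sum below day 0. The gamma chains summed to 34.3 ± 0.321 RPKM at day 0, 63.1 ± 7.94 RPKM in DM1, 19.3 ± 0.914 RPKM in DM2 and 24.5 ± 2.66 RPKM in DM3 at day 7, so that DM2 had the highest alpha chain sum and the lowest gamma chain sum. Lamc1, the gamma chain of most laminins, made up at least 92.4% of it in every group. Lamc1 stood at 264 and 261 CPM in the day 0 libraries, at 336 and 324 (day 2) and 441 and 528 (day 7) in DM1, at 243 and 323 and 161 and 151 in DM2, and at 278 and 328 and 182 and 214 in DM3. The DM1 libraries of day 7 were highest and those of DM2 at day 7 lowest, with log2 fold changes against day 0 of 0.88 ± 0.141 and -0.75 ± 0.140 (edgeR adjusted p = 0.000199 and 0.000617). In DM3 at day 7 Lamc1 was 1.29 ± 0.142 below DM1 (edgeR adjusted p = 1.36e-05). Lamc3, a minor gamma chain, was between 0.0358 and 0.719 CPM in all libraries, with the highest values, 0.719 and 0.493 CPM, in DM3 at day 7.

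Lamb1 rose most in DM3. Lamb1 stood at 417 and 381 CPM in the day 0 libraries, at 473 and 430.3 (day 2) and 526 and 516 (day 7) in DM1, at 491 and 553 and 599 and 556 in DM2, and at 671 and 785 and 932 and 956 in DM3. Every differentiation library exceeded both day 0 libraries, and the DM3 libraries of day 7 were the highest. Its log2 fold change against day 0 was 0.87 ± 0.0992 at day 2 and 1.24 ± 0.0999 at day 7 in DM3 (edgeR adjusted p = 1.5e-05 and 3.96e-07), and at day 7 DM3 was 0.86 ± 0.0991 above DM1 and 0.71 ± 0.0989 above DM2 (edgeR adjusted p = 2.04e-05 and 6.8e-05). Lamb2, the beta chain of the nerve and muscle junction, had group means from 102 ± 9.95 CPM at day 0 to 183 ± 0.626 CPM in DM1 at day 7, which was a log2 fold change of 0.85 ± 0.131 (edgeR adjusted p = 0.000151). It was 0.71 ± 0.130 lower in DM3 than in DM1 at day 7 (edgeR adjusted p = 0.000749). Per length, Lamb1 took 67.5 ± 0.768% of the beta chains at day 0 and 83.7 ± 0.927% in DM3 at day 7, and Lamb2 28.0 ± 0.633% and 16.2 ± 0.921%.

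In horse serum alone, the members that edgeR called at day 2 were all higher. In DM1 at day 2, 11 of 31 tested members (35.5%) were higher than at day 0 and 0 were lower by edgeR. Of all 15973 genes tested, 29.7% were called in either direction (15.2% higher and 14.6% lower). At an unadjusted p under 0.05, 1 member was lower, and DESeq2 called 14 higher and 0 lower. The calls of Lama2 (0.52) and Lamb2 (0.50) were among those lost when single libraries were left out. The largest rises were those of Itga10, Itga4, Itga11 and Lama4, at 3.33, 2.85, 2.61 and 2.27 on the log2 scale, and the abundant Itga7 and Itgb5 rose by 0.94 and 0.87. The Itga11 value was 3.90 without day 0 replicate 1 and 1.94 without day 0 replicate 2. By day 7, 17 members were higher and 5 lower, where 53.5% of all genes were called (27.7% higher and 25.8% lower). Apart from Itga8, which had no count at day 0, Itga10, Lama4 and Itga11 led, at 6.32, 5.01 and 4.57 (Itga11 at 5.86 and 3.90 without day 0 replicate 1 and 2), followed by Itga4 (2.78) and Itga2b (2.34), while the lowest were Itgb7 (-2.02), Lamb3 (-1.26), Itgb3 (-0.90) and Itga6 (-0.68). Of the 11 laminin chains, 9 were higher and 1, Lamb3, was lower. The 9 include Lamc3 (1.97), which ranged from 1.55 to 2.54 with 1 library left out and lost its call in each such fit. Lamb1 (0.38) lost its call without day 0 replicate 2, at 0.32. The median over the tested members was 0.82 (0.71 with genes of few counts at their bound), against 0.06 over all genes. From day 2 to day 7, 9 members rose and 7 fell, where 34.3% of all genes were called (16.8% higher and 17.5% lower). Itga10 (2.99), Lama4 (2.75) and Itga2b (1.06) were among those that rose, and Itgb7 (-2.35), Itga6 (-0.93), Itgb3 (-0.91) and Lamb3 (-0.81) fell. Itga4 was at -0.08. Only 9 of these 16 calls held with each library left out in turn, and the count was 9 without DM1 day 2 replicate 2.

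In the cocktail with FCS, beta subunits mostly fell at both days, while alpha subunits were divided at day 2 (5 higher and 2 lower) and had 7 of 12 lower at day 7. In DM2 at day 2, 11 members were higher than at day 0 and 10 lower, where 49.7% of all genes were called (23.5% higher and 26.2% lower). Itga2b (2.25), Lama4 (2.03), Itga10 (1.23) and Lamb2 (0.80) were among the higher ones, with Itga11 at 2.21. The Itga11 call was lost without day 0 replicate 2 (1.54, edgeR adjusted p = 0.0582), and its value was 3.50 without day 0 replicate 1. Itgb4 (-2.37), Itgb6 (-1.85), Lamb3 (-1.80) and Itgb8 (-1.42) were among the lowest. Itgb4 was at -3.32 without DM2 day 2 replicate 2. At day 7, 9 were higher and 15 lower, where 55.4% of all genes were called (24.5% higher and 30.9% lower). At that day 5 of 8 beta subunits were lower and 2 higher, against 6 lower and 1 higher at day 2. None of the 12 tested alpha subunits was higher by edgeR at day 7 (0 at an unadjusted p under 0.05) and 7 were lower, led by Itgal with its single count, Itga4 (-3.63), Itga3 (-2.22) and Itga6 (-1.04). In contrast, 7 of 11 laminin chains were higher, led by Lama1 with its 185 counts and by Lama4 (5.09), Lama3 (3.70), Lama2 (2.36) and Lama5 (1.36). Lamb3 (-2.08) and Lamc1 (-0.75) were among the 3 lower laminin chains. The median over the members was -0.22, against -0.03 over all genes. From day 2 to day 7, 8 members rose and 15 fell, where 54.8% of all genes were called (25.4% higher and 29.4% lower). The alpha subunits had 10 of 12 lower, among them Itga2b (-3.18), Itga4 (-2.52), Itga3 (-2.40) and Itga7 (-0.98), while Lama4 (3.06), Lama3 (2.41), Lama2 (1.72) and Lama5 (1.19) rose. The lower alpha subunits also included Itgal, with 1 count in DM2 at day 7. Itga1 (-1.91) and Itga11 (-1.60) were lower too. With 1 library left out, Itga1 ranged from -2.73 to -1.40 and Itga11 from -2.36 to -1.11. Each of these calls was lost in 3 of 4 such fits. Itgb1, at 0.23 in this comparison, was at -0.03 with libraries scaled by their totals alone.

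In the cocktail with horse serum, Itga7, Itga10, Itga2b, Lama2, Lama4 and Lamb1 were higher than at day 0 at both days. Itga6, Itgb4 and Lamb3 were among the members lower at both days. In DM3 at day 2, 14 members were higher than at day 0 and 7 lower, where 50.9% of all genes were called (25.5% higher and 25.4% lower). Itga10 (3.21), Lama4 (2.71), Itgal (2.18), Lama3 (1.91), Itga7 (1.80) and Itga2b (1.77) were among the highest and Lamb3 (-3.35), Itgb4 (-2.24) and Itgb6 (-1.28) among the lowest. At day 7, 9 were higher and 11 lower, where 59% of all genes were called (28.9% higher and 30.1% lower). Lama4 (3.51), Itga10 (2.71), Itga7 (1.89), Itga2b (1.72), Lama2 (1.67) and Lamb1 (1.24) were higher, and Itgb7 (-4.42), Lamb3 (-4.32), Itgb4 (-4.10), Itgb3 (-1.65), Itga3 (-1.36) and Itgb8 (-1.31) among the lower ones. The median over the members was 0.03, as over all genes. From day 2 to day 7, 6 rose and 15 fell, where 47.9% of all genes were called (22.6% higher and 25.3% lower). Itgb7 (-5.04), Itgb3 (-1.98), Itga3 (-1.81) and Itga4 (-1.66) fell, while Itgb6 (2.04), Lama4 (0.80) and Itgb1 (0.47) rose and Itga7 was at 0.10 ± 0.0977 (edgeR adjusted p = 0.431). Without DM3 day 7 replicate 1, Itgb7 was at -3.79 against day 0 and -4.42 against day 2, and without replicate 2 at -5.57 and -6.19. The 3 media share their day 0 libraries, so the comparisons with day 0 are not independent of each other.

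The cocktail was compared at 2% horse serum in DM3 and DM1. At day 2, 6 members were higher in DM3 and 11 lower, where 37% of all genes were called (17.6% higher and 19.4% lower), and with the 3 libraries of low pseudogene share left out 2 were higher and 8 lower. Itga7 (0.86), Lama2 (0.74) and Lamb1 (0.69) were higher; the Lama2 value was 0.63 without those 3 libraries (edgeR adjusted p = 0.0536). Lamb3 (-2.89), Itgb4 (-2.87), Itga4 (-1.59), Itgb8 (-1.45), Itgb6 (-1.24) and Itga6 (-1.22) were among the lower ones. At day 7, 5 members were higher and 20 lower, where 47.7% of all genes were called (22.7% higher and 25.1% lower). The 5 were Itgb6 (1.38), Lamb1 (0.86), Lama2 (0.83), Itga7 (0.69) and Itgb1 (0.34); Itga7 and Itgb1 pair as the laminin receptor of muscle, and Lamb1 and Lama2 are chains of its laminins, whose gamma chain Lamc1 was lower in DM3 (-1.29). Among the lowest were Itgb4 (-3.90), Itga10 (-3.61), Itga11 (-3.40), Itga4 (-3.17), Lamb3 (-3.06), Itgb7 (-2.40) and Itgb8 (-1.83). Itgb7 was at -1.77 without DM3 day 7 replicate 1 and -3.55 without replicate 2. The member median was -0.94 (-0.87 with genes of few counts at their bound), against 0.00 over all genes, and with libraries scaled by their totals the median of all genes was -0.23. Of the 25 calls, 20 held with each library of the 2 groups left out in turn. The change of this difference from day 2 to day 7 was itself called for 18 members, 3 upward and 15 downward, where 34.9% of all genes were called (16.3% higher and 18.7% lower).

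**Figure D4:**
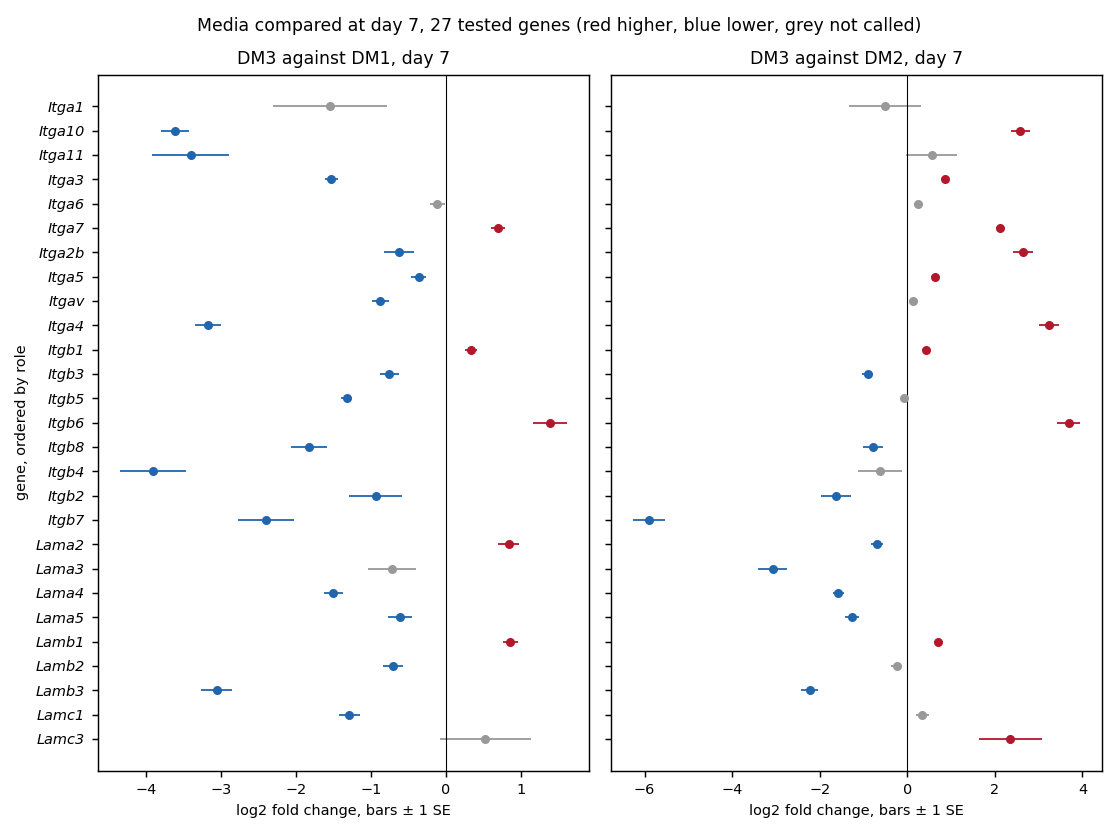
Log2 fold change at day 7 of 27 tested integrin and laminin genes (rows, ordered by role) in DM3 against DM1 (left) and against DM2 (right), with bars of 1 SE from the fit and colour by the edgeR call. Itga8, Itgal and Lama1 are left out because each had only 0 to 3 counts in DM2 or DM3 at day 7. Itga7, Itgb1, Itgb6 and Lamb1 are higher in DM3 in both panels, and Lama2 is higher than in DM1 and lower than in DM2.

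The serum was compared with the same cocktail in DM3 and DM2. At day 2, 10 of 31 tested members (32.3%) were called, 9 higher in DM3 and 1 lower. Of all genes, 16.3% were called (9.98% higher and 6.31% lower). Itga4 (2.37), Itga10 (1.98), Itga7 (1.04), Itgb3 (0.90) and Itgb5 (0.51) were higher and Lamb3 (-1.55) lower. Of the other calls, those of Lama4, Lama2 and Lamb1 were each lost without DM3 day 2 replicate 2 (0.55, 0.50 and 0.36, edgeR adjusted p = 0.0558, 0.0964 and 0.0743) and without DM2 day 2 replicate 1 (0.57, 0.39 and 0.40, edgeR adjusted p = 0.0573, 0.101 and 0.0789). Either of these leaves 6 calls, as does leaving out the 3 libraries of low pseudogene share. At day 7, 11 members were higher and 10 lower, where 52.7% of all genes were called (27.5% higher and 25.2% lower). Alpha subunits had 7 of 12 higher and 0 lower by edgeR (0 at an unadjusted p under 0.05): Itga4 (3.23), Itga2b (2.64), Itga10 (2.59), Itga7 (2.12), Itga3 (0.86) and Itga5 (0.64) and Itgal, with 21 counts against 1. Laminin chains had 2 higher, Lamb1 (0.71) and Lamc3, and 6 lower, among them Lama3 (-3.08), Lamb3 (-2.23), Lama4 (-1.58), Lama5 (-1.26) and Lama2 (-0.69). The Lamc3 call, 2.36, was lost without DM3 day 7 replicate 1 (2.06, edgeR adjusted p = 0.088) or DM2 day 7 replicate 2 (1.66, edgeR adjusted p = 0.117), and was at 3.80 without DM2 day 7 replicate 1. Of the beta subunits, Itgb6 (3.69) and Itgb1 (0.42) were higher and Itgb7 (-5.89), Itgb2 (-1.62), Itgb3 (-0.90) and Itgb8 (-0.78) lower. Itgb7 was at -5.27 without DM3 day 7 replicate 1 and -7.05 without replicate 2, and the Itgb8 call was lost without DM3 day 7 replicate 1 (-0.70, edgeR adjusted p = 0.0932) or DM2 day 7 replicate 1 (-0.35, edgeR adjusted p = 0.2). The change of the difference between DM3 and DM2 from day 2 to day 7 was called for 15 members, 5 upward and 10 downward, where 39.8% of all genes were called (20% higher and 19.8% lower).

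The genes that integrins and laminins work with were counted in 4 lists. Over all genes tested, 53.5% were called at day 7 against day 0 in DM1 (27.7% higher and 25.8% lower). The share was 55.4% in DM2 (24.5% higher and 30.9% lower) and 59% in DM3 (28.9% higher and 30.1% lower). The medians over all genes were 0.06, -0.03 and 0.03. Of 24 linkers between integrin tails and actin, 23 were tested, and at day 7 against day 0 the counts were 6 higher and 10 lower in DM1, 8 and 8 in DM2, and 7 and 10 in DM3, with medians of -0.19, -0.09 and 0.00. Itgb1bp2, or melusin, a striated muscle protein that binds the tail of Itgb1, was at 0.174 and 0.375 CPM at day 0, 10.1 and 7.60 CPM in DM1, 3.50 and 3.81 CPM in DM2 and 243 and 210.0 CPM in DM3 at day 7. The DM3 libraries did not overlap any others, and the log2 fold change was 9.66 ± 0.241 against day 0 and 4.68 ± 0.171 against DM1 (edgeR adjusted p = 2.78e-11 and 3.16e-09), where the muscle markers were also highest. Without day 0 replicate 2 the value against day 0 was 10.30. Flna, the actin crosslinker filamin A, fell in DM3 at day 7, by 2.30 ± 0.136 (edgeR adjusted p = 2.36e-08).

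All 13 basement membrane partners of laminin were tested. At day 7 against day 0 they had 9 higher and 1 lower in DM1, 3 higher and 7 lower in DM2, and 8 higher and 3 lower in DM3, with medians of 0.66, -0.39 and 0.88. Over all genes, 53.5%, 55.4% and 59% were called in DM1, DM2 and DM3. Dag1, the dystroglycan that anchors laminin to the muscle membrane, was higher in DM1 and in DM3 by 0.40 ± 0.104 and 0.92 ± 0.105 (edgeR adjusted p = 0.00647 and 8.74e-06) and was at 0.13 ± 0.104 in DM2 (edgeR adjusted p = 0.297). Nid1 and Nid2 link laminin to collagen IV. Nid1 fell in DM3 and in DM2, by 1.03 ± 0.154 and 0.68 ± 0.153 (edgeR adjusted p = 9.54e-05 and 0.00228), while Nid2 rose in DM1 and DM3, by 3.53 ± 0.136 and 1.97 ± 0.129, and fell in DM2, by 1.19 ± 0.134 (edgeR adjusted p = 1.5e-09, 6.22e-08 and 9.96e-06). Hspg2, or perlecan, was at 0.64 ± 0.240, -0.18 ± 0.239 and 0.10 ± 0.239 in DM1, DM2 and DM3 (edgeR adjusted p = 0.0485, 0.548 and 0.751). The DM1 call of Hspg2 was lost without any 1 of its 4 libraries (0.58 and 0.70 without day 0 replicate 1 and 2, 0.60 and 0.68 without DM1 day 7 replicate 1 and 2, edgeR adjusted p = 0.181, 0.108, 0.159 and 0.115). Bcam, a receptor for Lama5, and Npnt, a ligand of Itga8, were higher in DM3 than in DM2 at day 7 by 3.89 ± 0.174 and 3.82 ± 0.0841 (edgeR adjusted p = 4.38e-09 and 7.21e-11).

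Of 20 integrin ligands other than laminin and collagen, 17 were tested. At day 7 against day 0 the counts were 9 higher and 4 lower in DM1, 2 and 12 in DM2, and 3 and 10 in DM3, with medians of 0.39, -1.01 and -0.40. The shares of all genes called were 53.5%, 55.4% and 59%. Fn1, fibronectin, the ligand of Itga5, was at 0.51 ± 0.203 in DM1 and -0.29 ± 0.203 in DM2 and fell in DM3 by 1.18 ± 0.205 (edgeR adjusted p = 0.059, 0.249 and 0.000597). Vcam1, the ligand of Itga4, was at 0.18 ± 0.111 in DM1 and fell in DM2 and in DM3, by 2.17 ± 0.117 and 1.90 ± 0.116 (edgeR adjusted p = 0.198, 2e-08 and 3.22e-08). Tnc, tenascin C, fell in both cocktail media by 5.14 ± 0.179 and 4.51 ± 0.173 (edgeR adjusted p = 8.92e-10 and 7.13e-10). Postn, periostin, was at 12.1 CPM in both day 0 libraries, 256 and 212 CPM in DM1, 0.376 and 0.428 CPM in DM2 and 15.1 and 14.7 CPM in DM3 at day 7. Thbs1, thrombospondin 1, was 4.20 ± 0.131 higher in DM3 than in DM2 (edgeR adjusted p = 3.52e-10).

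All 16 membrane partners of integrins were tested, with 13 higher and 1 lower in DM1, 9 and 4 in DM2, and 9 and 3 in DM3 at day 7 against day 0, and medians of 0.68, 0.58 and 0.59. Of all genes, 53.5%, 55.4% and 59% were called there. Cd36, a receptor for thrombospondin and fatty acids, had 3 counts at day 0 and was at 29.3 and 24.3 CPM in DM3, 6.02 and 5.21 CPM in DM2 and 3.81 and 4.38 CPM in DM1 at day 7. Cav3, the caveolin of muscle, was at 0 at day 0, at 1.43 and 1.42 CPM in DM1 and at 1.73 and 2.05 CPM in DM3 at day 7. Itgbl1, a secreted protein with integrin beta repeats, was 3.52 ± 0.311 lower in DM3 than in DM1 at day 7 (edgeR adjusted p = 2.18e-06).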

How the data were processed

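Poly-A RNA libraries were read with a directional kit in 50-base single-end reads and aligned with STAR 2.5.1b to GRCm38 with Gencode vM12, per the series text. The deposited values are expected counts per gene, estimates that the authors made with RSEM 1.2.31, and were rounded to whole numbers here. Whether counting used the strand is not given in the sources used here. edgeR 4.0.16 (R 4.3.3) fitted all 14 libraries in 1 model with a mean for each of 7 groups (7 residual degrees of freedom), TMM scaling and filterByExpr, and its robust quasi-likelihood F test was adjusted by Benjamini-Hochberg over 15973 genes, with calls at adjusted p under 0.05. SEs are the log2 fold change divided by the root of F. The fit was tested on simulated data. Exon lengths and positions are from Gencode vM21. Alternatives were RLE size factors, library totals, DESeq2 1.42.0, no filter, only the groups compared, a replicate block, each library left out, and 3 libraries of low pseudogene share left out. The main fit did not pair libraries by replicate number. The members and lists were chosen with earlier results of these data known. Named are, by rule, the members by symbol, the called members of largest log2 fold change in each comparison (at most 8 in each direction), at most 6 genes of each partner list, and Itgb1bp2, Dag1, Nid1, Hspg2, Fn1 and Vcam1. The values of 1 member are not reported here, though counts, sums and medians include it. Ratios of 2 groups with 0 to 3 counts in 1 of them are bounds or exact 95% intervals, which cover counting error only; changes of a difference between days are fitted values throughout.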

Additional observations from a re-analysis of the deposited data

Results flagged for a closer look

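For 18 members the difference between DM3 and DM1 itself changed from day 2 to day 7 (edgeR contrast of contrasts, adjusted p under 0.05), where 34.9% of all genes did. In 3 of them the difference moved upward: Itgb6 by 2.62, Itga6 by 1.10 and Itgb1 by 0.71 on the log2 scale. In 15 it moved downward. Among the integrin subunits the values were -3.49 for Itga10, -2.69 for Itgb7, -1.58 for Itga4, -1.50 for Itga3, -1.11 for Itga2b, -1.07 for Itgb3, -0.56 for Itgb5 and -0.49 for Itgav, and -7.59 for Itga8. The Itga8 value is a fitted one that depends on the prior count and is no bound, since DM1 at day 2 had 0 counts. Among the laminin chains they included -1.95 for Lama4, -1.79 for Lama3, -1.17 for Lamc1, -1.05 for Lamb2 and -0.82 for Lama5. Of these 18 calls, 14 held with each library left out in turn. Itga2b lost its call without DM1 day 7 replicate 2 (-0.90, edgeR adjusted p = 0.054) and Itga8 without DM3 day 2 replicate 2 (-6.06, edgeR adjusted p = 0.108). Lama5 lost it without DM1 day 2 replicate 2 (-0.75), DM3 day 2 replicate 2 (-0.56) or DM3 day 7 replicate 1 (-0.67), at edgeR adjusted p = 0.0612, 0.0516 and 0.0688. Itgav lost it without DM1 day 2 replicate 2 (-0.44), DM3 day 2 replicate 1 (-0.42), DM1 day 7 replicate 2 (-0.43) or DM3 day 7 replicate 1 (-0.45), at edgeR adjusted p = 0.0935, 0.0638, 0.0904 and 0.0884. Itgb7 was at -2.06 without DM3 day 7 replicate 1 and -3.84 without replicate 2.

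For 15 members the difference between DM3 and DM2 changed from day 2 to day 7, where 39.8% of all genes did so. It moved upward for Itga2b by 3.13, Itgb6 by 3.12, Itga7 by 1.08, Itga3 by 0.59 and Itga5 by 0.52. It moved downward for Itgb7 (-5.69), Lama3 (-3.70), Lama4 (-2.26), Itgb2 (-2.05), Itgb3 (-1.80), Lama5 (-1.55), Itgb8 (-1.37), Lama2 (-1.30) and Itgb5 (-0.58), and for Lama1 (-9.17), a fitted value that is no bound either, since DM3 at day 7 had 0 counts. Itga5 lost its call without DM3 day 7 replicate 2 (0.46, edgeR adjusted p = 0.0513) and Lama1 without DM3 day 2 replicate 1 (-5.42, edgeR adjusted p = 1), and Itgb7 was at -5.06 without DM3 day 7 replicate 1 and -6.84 without replicate 2. Itgb3, Itgb5, Itgb6, Itgb7, Itga3, Itga2b, Lama3, Lama4 and Lama5 were called in both families of contrasts, which share the DM3 libraries.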

How the results depend on the processing

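Member counts stayed within 1.5 times of the reported ones with RLE size factors, library totals, DESeq2 and no filter. Fitting only the groups compared gave 19 calls (18 higher, 1 lower) in DM1 at day 2 against day 0 and 5 in DM3 against DM2 at day 2. Without the 3 libraries of low pseudogene share there were 10 calls in DM3 against DM1 and 6 in DM3 against DM2 at day 2, and over all comparisons 38 single-gene calls were lost and 247 held. Leaving out 1 library gave 9 to 12 calls in DM1 from day 2 to day 7 and 6 to 12 in DM3 against DM2 at day 2; the cause was not tested. Scaling by library totals turned Itgb1 in DM2 from day 2 to day 7 to -0.0278. It moved the median of all genes to -0.27 there, to -0.26 in DM2 and -0.18 in DM3 at day 7 against day 0, and to -0.23 in DM3 against DM1 at day 7. A replicate block left 284 of the member calls and lost 1, with 18 calls in place of 17 in DM3 against DM1 at day 2 and 22 in place of 21 in DM3 against DM2 at day 7. Deviations of same-numbered libraries correlated from -0.78 to 0.74 over 21 pairs of groups (median 0.027), with 3 pairs over 0.1 and 4 under -0.1. Correlations of both signs, from 2 libraries a group, cannot settle whether same-numbered libraries belong together. Depth limited Itga1, Itga8, Itgal, Itgb2 and Lamc3, each at most 2.04 CPM in any library, whose SEs were 0.327 or more in each comparison.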
